A study of Homo sapiens with 2 samples.

Results

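Nascent transcription of 9 hypoxia sensing genes was examined in untreated BJ cells, which are fibroblasts of an established line from human skin. The genes are those of the hypoxia-inducible factor (HIF) subunits HIF1A, EPAS1 and ARNT, the oxygen-dependent hydroxylases EGLN1, EGLN2 and HIF1AN, the ubiquitin ligase receptor VHL, and the mitophagy receptors BNIP3 and BNIP3L. They were chosen by name, with earlier results of these data known, and 8 of the 9 had a value among the 12353 genes measured. EGLN2 had none. The cells were grown in medium with 10% serum and received no treatment, so no low-oxygen condition stands beside them, and the labels state no oxygen level. Both libraries, called a and b here, belong to this 1 group and come from biological replicates, per the labels.

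In cells with ample oxygen, prolyl hydroxylases of the EGLN family modify the HIF alpha subunits, and the VHL protein then recognises the modified subunits and directs them to the proteasome. The asparaginyl hydroxylase encoded by HIF1AN modifies a further residue and so keeps the alpha subunits from binding the coactivators p300 and CBP. When oxygen is scarce both reactions slow down, and stabilised alpha subunits pair with ARNT and switch on genes of glycolysis, blood vessel growth and mitochondrial removal, among them BNIP3 and BNIP3L. Much of this control acts on the protein, which the assay does not see. Global run-on sequencing (GRO-seq) lets polymerases that are already engaged on a gene extend their RNA in isolated nuclei with a tagged nucleotide, and the tagged RNA is sequenced. Its value for a gene reports engaged polymerase, not mature mRNA or protein.

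Levels are given as FPKM, fragment counts divided by gene length and by library size, which is meant to let genes of different length be set side by side. Which gene length was used for it is not stated. All genes here means the 12353 with a value, which include 59.8% of the protein-coding genes of RefSeq. Medians, ranks and percentiles are thus among measured genes only. The median of all genes was 11.8 FPKM in library a and 11.7 in b, and the middle 50% of all genes had mean values between 6.30 and 22.2 FPKM. The libraries ranked all genes alike, with a Spearman rho of 0.986 across genes, which are not independent replicates. All 12 fibroblast marker genes had values and 11 of them lay above the median gene, beside 50% of all genes. Epithelial, endothelial and leukocyte markers had a value for 1 of 6 genes in each list. Of the melanocyte markers 4 of 6 had values, with a summed level of 42.7 FPKM in library a and 37.3 in b, and of the erythroid markers 2 of 6. In each of these lists 1 gene lay above the median gene. These were PMEL of the melanocyte list, at 24.0 FPKM in library a and 20.8 in b, and EPOR of the erythroid list, at 11.9 and 12.2. The leukocyte marker with a value was CD68, at 112 FPKM in library a and 116 in b, between its neighbours EIF4A1, at 218 and 228, and MPDU1, at 33.3 and 32.98, whose part in its value was not tested. With 2 libraries of 1 condition no p-value was computed, since an exact sign-flip test of 2 values cannot go below 0.5. The cultures were measured in bulk, so fewer transcribing cells and less polymerase per cell cannot be told apart.

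The hypoxia sensing genes spanned an 8.23-fold range, with a median of 14.5 FPKM against 11.7 FPKM for all genes. HIF1A led, EPAS1 followed, and EGLN1 was lowest. Of the 8 measured members 6 lay above the median gene, as did 50% of all genes. HIF1A and EPAS1 were more than 2-fold above it, 2 of 8 members beside 23.1% of all genes, and 0 of 8 were more than 2-fold below it, beside 22.9%. These shares are descriptions of a short list and are not set apart from the background.

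**Figure D1:**
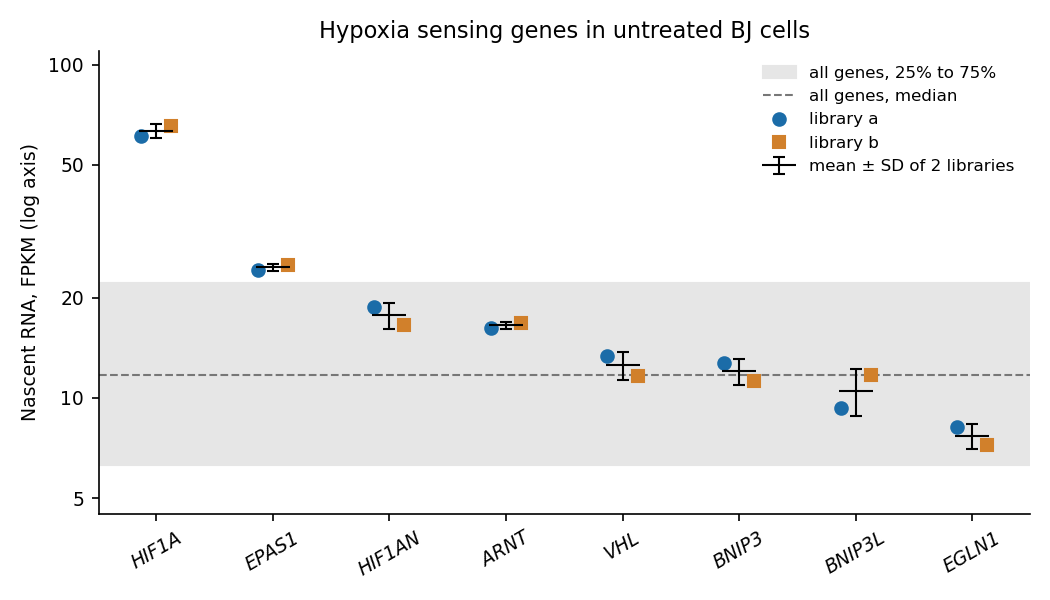
Nascent RNA level (FPKM, log axis) of the 8 measured hypoxia sensing genes, ordered by their mean; circles are library a, squares library b, and the black bars the mean ± SD of both. HIF1A, at 61.1 and 65.6 FPKM, and EPAS1, at 24.3 and 25.1 FPKM, lie above the grey band that holds the middle 50% of all genes, and the other 6 lie inside it.

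HIF1A encodes the alpha subunit of HIF-1. Its level was 61.1 FPKM in library a and 65.6 FPKM in b, a mean of 63.3 ± 3.19 (SD, n = 2). That was 5.41 times the median gene and rank 593 of 12353. Both libraries placed it near the 95th percentile of all genes, at 95.0 in library a and 95.5 in b. Several noncoding RNA genes annotated in RefSeq overlap it, HIF1A-AS1, HIF1A-AS2 and HIF1A-AS3, and had no value here. Whether strand was used in the counting is not stated, so reads from HIF1A and from an antisense partner cannot be told apart. The protein-coding neighbour SNAPC1 was far lower, at 10.3 FPKM in library a and 9.93 in b.

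The start of HIF1A is shown because it belongs to the member with the highest FPKM. RefSeq windows of 300 bases (250 before the transcription start and 50 after it, build GRCh38.p14) were matched for 7 of the 9 members, and VHL and BNIP3L were not matched. They were searched on both strands for the core of the hypoxia response element, the sequence that HIF binds, spelled ACGTG or GCGTG. Matches that overlap, such as those on both strands of CACGTG, were counted as 1. The core is short and common: 48.4% of all 35116 windows hold it, and 60.3% of the 14536 windows of genes with a value. A match is a run of letters and not a sign of binding. The HIF1A window held 1 match, at bases -204 to -200 from the start, and a further annotated HIF1A start held none. The 250 bases before the start lie at chr14:61695263-61695512 on the plus strand and read, 5′ to 3′ with the match in capitals:
HIF1A: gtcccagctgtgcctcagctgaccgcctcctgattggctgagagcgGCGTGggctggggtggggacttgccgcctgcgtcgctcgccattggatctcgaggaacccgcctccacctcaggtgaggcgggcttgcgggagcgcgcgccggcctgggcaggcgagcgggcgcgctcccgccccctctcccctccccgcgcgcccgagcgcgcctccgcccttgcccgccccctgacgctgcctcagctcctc

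EPAS1 encodes the alpha subunit of HIF-2, a paralog with a more restricted tissue pattern. It stood at 24.3 FPKM in library a and 25.1 FPKM in b (24.7 ± 0.608, SD, n = 2), 2.11 times the median gene and at percentile 78.5. Of the 2 alpha subunit genes, HIF1A was the higher in both libraries. Its level exceeded that of EPAS1 2.56-fold, a log2 ratio of 1.33 in library a and 1.38 in b (mean 1.35, standard error 0.11). Standard errors of ratios are taken from the spread between libraries of the 1000 genes nearest in level to each gene, because an SD of 2 values is itself uncertain. They measure how well the libraries repeat a ratio, and not an error that both libraries share, such as that from gene length. A ratio was called when it exceeded 2 standard errors with the same sign in both libraries. HIF1A made up 71.6% of the summed FPKM of the pair in library a and 72.3% in b. The EPAS1 window held 1 match to the core, at bases -117 to -113. Its neighbour PRKCE, a protein kinase C gene, was at 5.78 FPKM in library a and 6.30 in b.

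ARNT, the beta subunit shared by HIF-1 and HIF-2 and a partner of other transcription factors, was lower than either alpha subunit. It stood at 16.2 FPKM in library a and 16.8 FPKM in b (16.5 ± 0.438, SD, n = 2), at percentile 64.2. HIF1A exceeded it 3.82-fold (log2 ratio 1.91 in library a and 1.96 in b, standard error 0.12), and EPAS1 exceeded it 1.49-fold (0.58 in both libraries, standard error 0.13). Together the alpha subunit genes reached 5.27 times the FPKM of ARNT in library a and 5.40 times in b. ARNT2, the paralog best known from neurons and kidney, was measured at 8.87 and 10.2 FPKM, and ARNT exceeded it 1.73-fold (log2 ratio 0.86 in library a and 0.72 in b, standard error 0.15). HIF3A, the gene of a further alpha subunit, had no value. The ARNT window held no match to the core. CTSK, the gene next to ARNT that encodes the protease cathepsin K, stood at 25.5 FPKM in library a and 24.2 in b.

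Among the hydroxylases, the asparaginyl enzyme gene stood above the main prolyl enzyme gene. HIF1AN was at 18.8 FPKM in library a and 16.6 in b (17.7 ± 1.54, SD, n = 2), at percentile 66.9. EGLN1, which encodes PHD2, the enzyme that does most of the HIF prolyl hydroxylation in cells with ample oxygen, was at 8.18 FPKM in library a and 7.21 in b (7.70 ± 0.686, SD, n = 2). EGLN1 was the lowest measured member in both libraries, at percentile 32.3. Its level lay 2.28-fold below that of HIF1AN, with a log2 ratio of -1.19 in each library (standard error 0.15). HIF1A exceeded EGLN1 8.15-fold (log2 ratio 2.88 in library a and 3.17 in b, standard error 0.14) and HIF1AN 3.57-fold (1.70 in library a and 1.98 in b, standard error 0.12). Both ratios were smaller in library a, where both hydroxylase genes were higher and HIF1A was lower than in library b. P4HTM, a hydroxylase of the endoplasmic reticulum membrane that can also act on HIF alpha subunits, had the highest value of the group at 32.2 and 35.5 FPKM.

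EGLN2 and EGLN3, the genes of PHD1 and PHD3, had no value, so the 4 planned ratios with them could not be formed. A value was present for the readthrough gene RAB4B-EGLN2, whose annotated span contains the whole of EGLN2 on GRCh38. It stood at 19.4 FPKM in library a and 15.5 in b (17.4 ± 2.78, SD, n = 2). RAB4B, the upstream gene of the readthrough, was at 26.8 and 21.9 FPKM. How reads that fall on both EGLN2 and the readthrough gene were counted is not stated, and no part of the 17.4 FPKM can be assigned to EGLN2. The absence of an EGLN2 value therefore does not show that the gene was silent. The table holds no zeros in either column and its lowest value is 0.27 FPKM.

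EGLN1 is itself a HIF target, which closes a feedback loop, and its start is shown for that reason. The window held 1 match to the core, at bases -13 to -9. Of the EGLN2 windows, 1 of 2 held a match, at bases -49 to -44, and the HIF1AN window held none. The 250 bases before the EGLN1 start lie at chr1:231422288-231422537 on the minus strand and read, 5′ to 3′ with the match in capitals:
EGLN1: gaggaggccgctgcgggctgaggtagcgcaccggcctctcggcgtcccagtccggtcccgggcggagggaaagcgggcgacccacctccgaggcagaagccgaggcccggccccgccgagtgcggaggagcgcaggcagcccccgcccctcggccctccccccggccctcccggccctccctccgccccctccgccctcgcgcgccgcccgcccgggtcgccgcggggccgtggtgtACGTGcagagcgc

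VHL, the substrate receptor of the ligase that marks hydroxylated HIF alpha for destruction, had a value near that of the median gene. It had 13.4 FPKM in library a and 11.7 FPKM in b (12.5 ± 1.22, SD, n = 2), at percentile 55.8 in library a and 49.9 in b, so the libraries place it on different sides of the median. HIF1A exceeded VHL 5.03-fold (log2 ratio 2.18 in library a and 2.48 in b, standard error 0.12). The related gene VHLL on chromosome 1 was measured at 11.5 and 12.7 FPKM. VHL and VHLL are similar in sequence and the handling of reads with several possible origins is not stated, so both values carry that uncertainty. The flanking genes of VHL were unlike it and each other, with BRK1 at 21.6 and 23.2 FPKM and IRAK2, an interleukin-1 receptor kinase gene, at 2.79 and 1.48 FPKM.

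The ligase partners of VHL had levels from below VHL to many times above it. All 6 genes of the complex and its activating modifier had values. CUL2, the cullin scaffold, was at 12.3 FPKM in library a and 12.5 in b and did not differ from VHL beyond the spread between libraries: VHL lay 1.01-fold above it, with an interval of 2 standard errors from 0.832-fold to 1.22-fold. ELOC, an elongin that joins VHL to CUL2, was at 15.4 and 15.9 FPKM, and VHL lay 1.25-fold below it (log2 ratio -0.32, standard error 0.14). That ratio is -0.20 in library a taken alone and is then within 2 standard errors. ELOB, the partner of ELOC, was at 25.1 and 29.4 FPKM, and VHL lay 2.16-fold below it (log2 ratio -0.90 in library a and -1.32 in b). RBX1, the RING subunit that many cullin ligases share, was at 74.9 and 78.3 FPKM, and VHL lay 6.08-fold below it (log2 ratio -2.47 in library a and -2.74 in b). NEDD8, which encodes the modifier that activates cullins, was lowest at 7.90 and 10.4 FPKM.

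**Figure D2:**
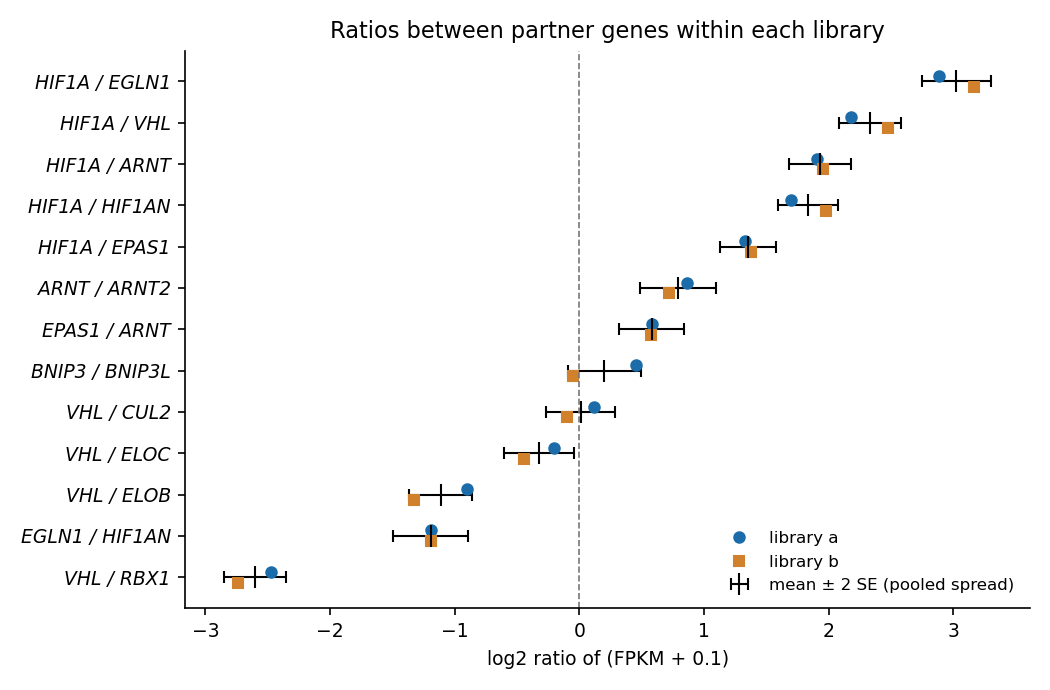
log2 ratio of (FPKM + 0.1) between partner genes within library a (circles) and library b (squares), with the mean ± 2 standard errors from the spread of genes of like level (black). Of 13 pairs, 11 exceed 2 standard errors with the same sign in both libraries, and the ratios of BNIP3 to BNIP3L and of VHL to CUL2 cross 0. The share of pairs among all genes that would do so was not computed.

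BNIP3 and BNIP3L encode related proteins of the outer mitochondrial membrane that recruit the autophagy machinery to mitochondria. BNIP3 was at 12.8 FPKM in library a and 11.3 FPKM in b (12.02 ± 1.06, SD, n = 2), at percentile 51.3. BNIP3L, also known as NIX and needed for the clearance of mitochondria from maturing red cells, was at 9.30 FPKM in library a and 11.7 FPKM in b (10.5 ± 1.70, SD, n = 2), at percentile 45.1. Both lay close to the median gene. Their order was not settled: BNIP3 was higher in library a (log2 ratio 0.45) and slightly lower in library b (-0.05), with a mean of 0.20 and a standard error of 0.15. The interval of 2 standard errors runs from 0.937-fold to 1.41-fold. In library a taken alone the ratio exceeds 2 standard errors.

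Both genes lie beside a gene of a B regulatory subunit of protein phosphatase 2A. PPP2R2D overlaps BNIP3 in the GRCh38 annotation and stood at 9.47 FPKM in library a and 7.38 in b, so reads in the shared stretch are uncertain. PPP2R2A is the next protein-coding gene to BNIP3L and stood at 16.8 and 12.8 FPKM. BNIP3 also has 44 annotated pseudogenes by name, of which 0 had a value, and reads shared with them are a further uncertainty.

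The BNIP3 start is shown because this gene is a textbook HIF target and its window held the most matches of the members. There were 5 separate matches, all between bases -143 and -100, and 1 of them is the palindrome CACGTG at bases -134 to -129. Windows with at least 5 matches made up 0.994% of all windows and 1.24% of those of genes with a value. The cutoff of 5 is the count of BNIP3 itself, the highest of the member windows. These shares therefore do not measure how unusual that count is. The BNIP3 window is 80.7% G and C, higher than 97.9% of all windows, and holds 48 CpG. The shares above are over windows with a median of 58.7% G and C (all windows) and 64.7% (genes with a value). The member windows nearest to it in G and C, those of EPAS1 (80.0%, 47 CpG) and EGLN1 (80.0%, 42 CpG), held 1 match each. The part of base composition in the count was not tested. The 250 bases before the start lie at chr10:131981924-131982173 on the minus strand and read, 5′ to 3′ with the matches in capitals:
BNIP3: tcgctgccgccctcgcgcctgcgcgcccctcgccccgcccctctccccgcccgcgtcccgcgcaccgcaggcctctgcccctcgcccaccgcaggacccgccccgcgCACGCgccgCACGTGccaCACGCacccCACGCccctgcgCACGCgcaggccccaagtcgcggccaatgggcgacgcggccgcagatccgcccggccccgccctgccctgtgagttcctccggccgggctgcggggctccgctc

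**Figure D3:**
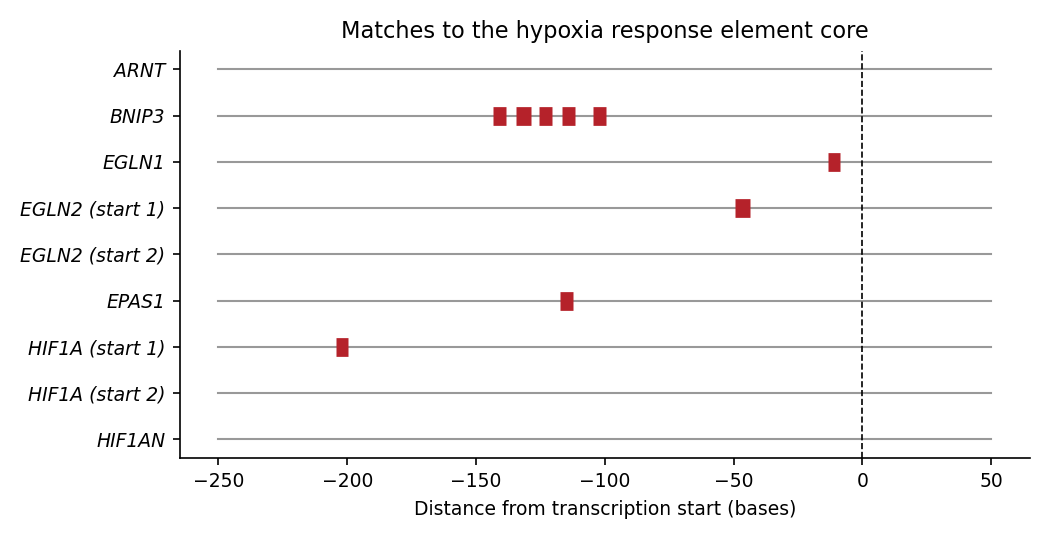
Position of matches to the hypoxia response element core (red blocks) in the windows of 7 members, as distance in bases from the annotated transcription start (dashed line); EGLN2 and HIF1A have 2 annotated starts each. BNIP3 holds 5 matches between -143 and -100, EGLN1, EGLN2, EPAS1 and HIF1A hold 1 each, and ARNT and HIF1AN hold none.

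Ordered by level, the members ran HIF1A, EPAS1, HIF1AN, ARNT, VHL, BNIP3, BNIP3L and EGLN1. Of the 7 gaps between neighbours in that order, 4 exceeded 2 standard errors. These were the gaps from HIF1A to EPAS1, from EPAS1 to HIF1AN (1.40-fold), from ARNT to VHL (1.32-fold) and from BNIP3L to EGLN1 (1.35-fold). Leaving out library b ends the call of 2 of these 4 gaps: in library a alone that from ARNT to VHL is 0.27 on the log2 scale against 2 standard errors of 0.39, and that from BNIP3L to EGLN1 is 0.18 against 0.45. HIF1AN and ARNT did not differ beyond the spread (1.07-fold, ARNT the higher in library b), nor did VHL and BNIP3 (1.04-fold) or BNIP3 and BNIP3L (1.15-fold). A gap within 2 standard errors does not show that the levels are equal. Taken over all 28 pairs of measured members, 24 differed by more than 2 standard errors. The share of pairs among all genes past the same limit was not computed. The counts of gaps and pairs therefore do not set the members apart from other genes.

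The members were measured about as closely as other genes. The difference between libraries, as library a over library b with the median of all genes set to 0, had a median size of 1.12-fold over the 8 members, against 1.10-fold over all genes. BNIP3L differed by 1.27-fold and was the 1 member of 8 past 1.2-fold, beside 21.3% of all genes. None of the 8 passed 1.5-fold, beside 2.16% of all genes. Library a was the higher for EGLN1, HIF1AN, VHL and BNIP3, by 1.12-fold to 1.13-fold. Library b was the higher for HIF1A, EPAS1, ARNT and BNIP3L. The 3 HIF subunit genes and ARNT2 were thus all higher in library b, by at most 1.16-fold, whereas both measured hydroxylase members were higher in library a. Differences of this size are common among genes of like level, where the SD between libraries was 0.11 to 0.17 on the log2 scale.

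**Figure D4:**
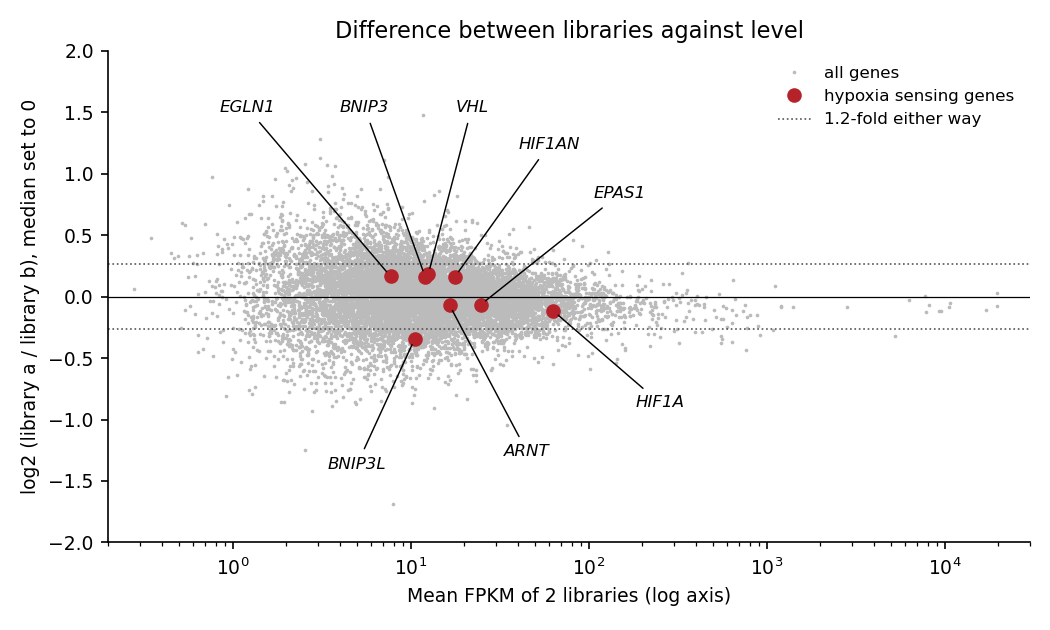
Difference between libraries (log2 of library a over library b, median of all genes set to 0) against mean FPKM (log axis) for all 12353 genes (grey) and the 8 measured hypoxia sensing genes (red). Of these, BNIP3L lies outside the dotted lines at 1.2-fold, at -0.34, and the other 7 lie inside.

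Around these genes, 9 lists of the wider pathway held 81 genes, of which 75 had values. Of these, 51 lay above the median gene, beside 50% of all genes. The lists were drawn up from textbook knowledge with earlier results of these data known, they contain the members, and their counts are descriptions. Genes that act on HIF stability were spread widely, with 4 of 8 above the median gene, beside 50% of all genes. HSP90AB1 (188 ± 6.55 FPKM) and HSP90AA1 (79.3 ± 9.64), the chaperones that hold HIF alpha, and RACK1 (156 ± 5.70), which competes with them, were at the top (SD, n = 2 for each). SIAH1 and SIAH2, ubiquitin ligases that act on EGLN proteins, stood at 9.33 ± 0.170 and 9.57 ± 0.226 FPKM, and USP20, a deubiquitinase of HIF1A, was lowest at 5.24 ± 0.735.

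Of the coactivator genes, 4 of 6 had values and all 4 lay above the median gene, beside 50% of all genes. EP300 (18.7 ± 1.43 FPKM) and CREBBP (12.2 ± 0.672) encode p300 and CBP, the coactivators that HIF1AN keeps from HIF alpha. CITED2, which competes with HIF alpha for the same coactivator domain and is itself a HIF target, was at 772 FPKM in library a and 847 in b. CDK8, a kinase of the Mediator complex, was at 17.9 ± 0.799 FPKM. CITED1 and CITED4 had no value.

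Genes of mitochondrial removal other than the members fell on both sides of the median gene, 3 of 6 above it, beside 50% of all genes. The receptors BCL2L13 (39.0 ± 3.50 FPKM), FKBP8 (26.8 ± 1.44) and PHB2 (44.8 ± 3.30) stood above both BNIP3 and BNIP3L in mean level, and the receptor FUNDC1 (7.48 ± 0.269) below both. FBXL4 and PPTC7, which hold BNIP3 and BNIP3L proteins down, were the lowest of the list at 5.67 ± 0.933 and 5.42 ± 0.905 FPKM. Of the other oxygen-dependent dioxygenase genes, which encode histone demethylases and the cysteine dioxygenase ADO, 2 of 6 lay above the median gene, beside 50% of all genes. KDM3A led at 13.3 ± 0.834 FPKM, ADO was at 10.3 FPKM in library a and 15.4 in b, KDM5A was at 10.4 ± 0.276, and KDM4B was lowest at 3.10 ± 0.375.

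HIF target genes for the most part had values above the median gene without any low-oxygen treatment. Of 37 listed targets 36 had a value and 27 lay above the median gene, beside 50% of all genes, with a median of 18.3 FPKM over the 36. More than 2-fold above it were 17 of the 36, beside 23.1% of all genes, and 1 was more than 2-fold below, beside 22.9%. Some of these levels were known when the list was drawn up, so the counts support nothing about targets in general. Most of these genes have other strong inputs, and in a single condition no part of their level can be ascribed to HIF. Among targets of glucose metabolism GAPDH, ENO1 and LDHA led, with LDHA at 84.3 FPKM in library a and 87.4 in b, and PDK1, the kinase that turns down pyruvate dehydrogenase, was lowest at 5.44 and 7.58 FPKM. The glucose transporter genes SLC2A1 (34.9 ± 0.905) and SLC2A3 (64.3 ± 2.69) also lay above the median.

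Among the other targets the hormone precursor gene ADM was highest at 352 FPKM in library a and 378 in b. DDIT4, an inhibitor of mTOR signalling, stood at 163 FPKM in library a and 172 in b. VEGFA, the main vascular growth factor, was at 12.2 ± 0.226 FPKM (SD, n = 2) and thus close to VHL and BNIP3. The carbonic anhydrase gene CA9, often used as a marker of hypoxia, was at 46.7 and 50.7 FPKM, whereas CA12 was lowest of the list at 1.95 and 1.67 FPKM. The genes on either side of CA9 were at 236 and 213 FPKM (TPM2) and at 38.3 and 39.5 FPKM (ARHGEF39), and their part in the CA9 value was not tested. EPO, the hormone gene through which HIF regulation was discovered, had no value.

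**Figure D5:**
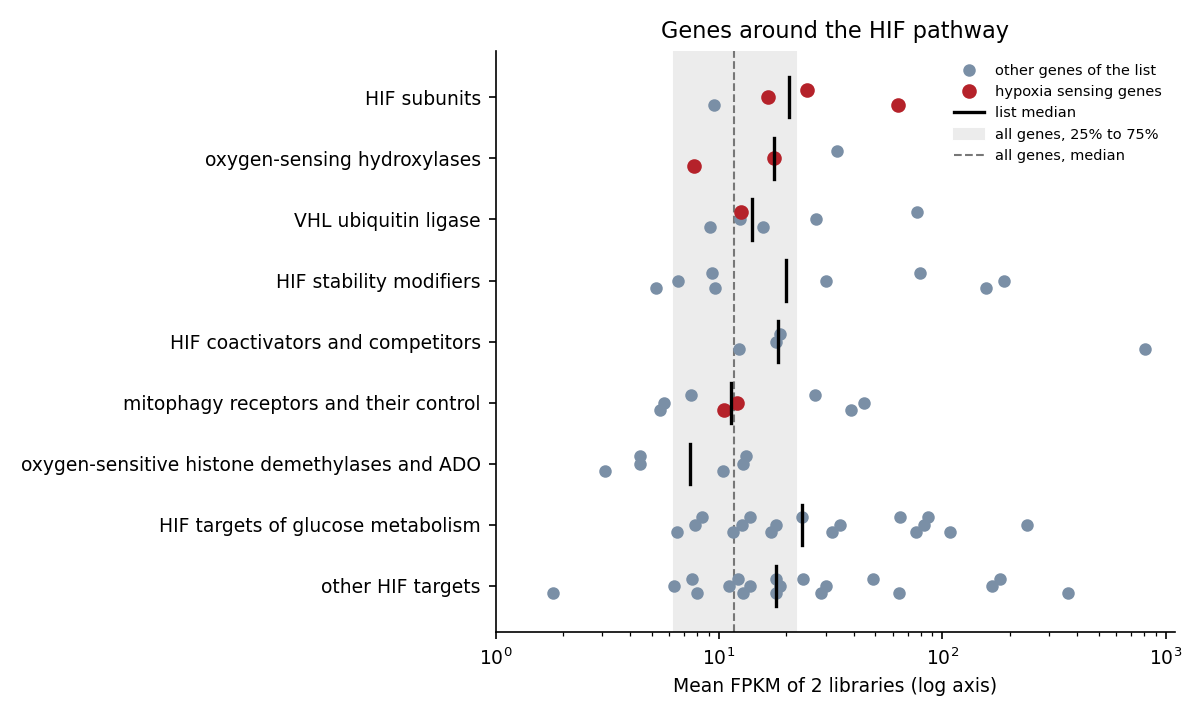
Mean FPKM of 2 libraries (log axis) for genes of 9 lists around the HIF pathway, with hypoxia sensing genes in red, other genes in blue-grey and list medians as black ticks. The list of HIF targets of glucose metabolism has its median at 23.6 FPKM, above the grey band of the middle 50% of all genes, and the list of histone demethylases and ADO has its median at 7.42 FPKM, below the dashed median of all genes.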

How the data were processed

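The deposited table holds 2 columns of FPKM, made by the authors, for 12353 Ensembl gene identifiers in untreated BJ cells. The run-on lasted 5 min at 30 °C with sarkosyl, per the labels' protocols. Bowtie2, HTSeq and the build hg19 appear, with no version or role, in the submitters' processing notes. Sources used here do not give gene lengths, strand use or the handling of multiply mapped reads. The columns end in a and b and show the group but not which replicate they hold. Identifiers were paired with symbols through an Ensembl name table (12196 matched). Gene overlaps, neighbours and promoter windows are from RefSeq on GRCh38.p14 and were used with no conversion of coordinates. Depth is unknown: among the 500 lowest genes the ratios between columns took 115 values at 2 decimals and the commonest was shared by 15 genes, so the worth of 1 read could not be recovered and no counting interval is given. A pseudocount of 0.1 was used for log2 values. The spread of each gene was pooled over the 1000 genes nearest in mean log2 level, and the procedure was tested on simulated data. Named genes are the members, their planned partners, the 3 highest, the lowest and the unmeasured genes of each list, the genes nearest in level, and genomic neighbours; 1 gene this rule selects is not reported here. Others, such as VEGFA, SIAH1, SIAH2, FUNDC1, FBXL4, SLC2A1 and SLC2A3, and the neighbours of CA9, CD68 and VHLL, were chosen after their values were seen. Members and lists were chosen with earlier results of these data known. Python 3.11.15, pandas 2.3.3 and numpy 2.4.6 were used.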

Additional observations from a re-analysis of the deposited data

How the results depend on the processing

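No paired analysis was possible because all samples belong to 1 group and the columns carry no replicate number. The alternatives were pseudocounts of 0 and 1, quantile normalization, a minimum of 1 FPKM and a protein-coding background. Further ones were the SD of each pair's own ratio over the 2 libraries, a 1.5-fold threshold and each library left out. Of 250 values recomputed, 242 were labelled unchanged. Counts and shares were so labelled within 1.5-fold, ratios when the call was kept, and levels within the SD of their 2 single-library values. A level seldom moves past that SD when 1 of the 2 libraries is left out, so for levels that label was nearly fixed in advance. At 1.5-fold, 0 members differed between libraries, in place of 1 at 1.2-fold. With 1 library left out, the count of members above the median gene ran from 5 to 6, the called pairs numbered 11 in each case and the called gaps ran from 3 to 4, but not the same ones: without library b the gaps from ARNT to VHL and from BNIP3L to EGLN1 lost their call and that from BNIP3 to BNIP3L gained one. In library b alone ARNT ranked above HIF1AN and BNIP3L above VHL and BNIP3. Without library b the log2 ratio of VHL to ELOC came to -0.20 and was no longer called, and that of BNIP3 to BNIP3L came to 0.45 and was called. With library b left out, 1 of the 6 histone demethylase and ADO genes lay above the median gene, in place of 2. Unknown depth, unknown gene lengths and 2 libraries limit every value.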

Other observations

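The gene nearest in level to each member over the 2 libraries, by Euclidean distance of log2(FPKM + 0.1), was RPL7 for HIF1A (61.2 FPKM in library a and 65.4 in b), INTS6 for EPAS1 (24.3 and 25.1), TBC1D19 for ARNT (16.2 and 16.8), PPP1R2 for EGLN1 (8.13 and 7.18), SENP3 for HIF1AN (18.8 and 16.7), NDUFA1 for VHL (13.4 and 11.7), PPP4R2 for BNIP3 (12.8 and 11.3) and PEX19 for BNIP3L (9.34 and 11.8). With 2 libraries of 1 condition, likeness means a like level and nothing more.

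The neighbours of VHLL, GLMP at 51.5 FPKM in library a and 60.2 in b and CCT3 at 36.4 and 38.9 FPKM, stood above VHLL itself in both libraries, and their part in its value was not tested.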
